A study of Mus musculus with 23 samples.

Results

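The day 11 response of circulating immature myeloid cells was compared between the B16 and the CT26 tumour model in mice, gene by gene. For each gene the log2 change of day 11 against day 0 was taken within each tumour model, and the CT26 change was subtracted from the B16 change, so a positive difference means a higher B16 change. The rule took every gene present in the tables of both models, 24421 of 24421, and 12312 of them, with a mean of at least 5 normalized counts over the 6 libraries of at least 1 model, were tested. The 12 libraries used, of 23 in the series, formed 4 groups of 3. The first was B16 at day 11 and the second B16 at day 0, B16 being a melanoma cell line and the mice being labelled C57bl. The others were CT26 at day 11 and CT26 at day 0, CT26 being a colon carcinoma cell line and the mice being labelled Balbc. What day 0 stands for, tumour cells given or not, is not said in the sources used here. All cells were called MDSCs (myeloid-derived suppressor cells) or immature myeloid cells, came from peripheral blood by magnetic separation, and were measured by poly-A RNA sequencing. The libraries of a group are described as biological repeats and not said to be separate animals, so p-values measure the spread between these samples, which may be technical. Tumour line, mouse strain and table go together and cannot be told apart in any model difference. The genes of the mice's major histocompatibility complex differ between the strains as well.

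Immature myeloid cells are a mixture of neutrophil-like and monocyte-like cells that leave the bone marrow in larger numbers when a tumour secretes growth factors such as G-CSF and GM-CSF. They are known for restraining T cells through arginase, inducible nitric oxide synthase, prostaglandins and oxidants. Interferons, hypoxia and contact with inflamed tissue are each known to change what such cells transcribe.

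The deposited values are normalized counts, scaled separately in each model, so levels were never compared between models. Libraries held 14894830 to 15027698 normalized counts in B16 day 11 and 13455295 to 13809693 in B16 day 0. In CT26 they held 11815085 to 14272441 at day 11 and 10703698 to 10781539 at day 0. The neutrophil genes S100a8, S100a9, Csf3r and Cxcr2 were abundant in every library, and S100a9 was the highest gene in all but those of B16 day 0. The ribosomal RNA precursor Rn45s took 0.77% to 1.05% of B16 day 11 libraries, against 2.57% to 3.1% of B16 day 0 libraries, where it was the highest gene. It took 0.359% to 0.639% of CT26 day 11 libraries, against 0.636% to 0.77% of CT26 day 0 libraries. Its part in the B16 changes was not tested. CT26 day 11 replicate 1 stood apart in macrophage genes, and B16 day 0 replicate 3 in interferon, guanylate-binding protein and platelet genes. Values without 1 of them are given beside the lists and genes they move most.

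Most differences between the models came from genes that moved in 1 model and were not called in the other. The difference was called for 4553 of 12312 genes, 37% of those tested, at an adjusted p under 0.05 in limma. It was positive for 2207 genes (17.9%) and negative for 2346 (19.1%). At day 11 B16 had 2624 genes higher (21.3%) and 2239 lower (18.2%), and CT26 had 2839 higher (23.1%) and 2546 lower (20.7%). Of the 4553 genes called for the difference, 3235 (71.1%) were called in 1 model only. Among positive differences 694 genes rose in B16 alone and 861 fell in CT26 alone. Among negative ones 724 genes fell in B16 alone and 956 rose in CT26 alone. Opposite calls were made for 641 genes, 361 higher in B16 and lower in CT26, and 280 the other way round. All 641 were called for the difference. Another 1771 genes were called the same way in both models, and 483 of these differed in size. The difference reached at least 1 on the log2 scale for 1205 called positive and 975 called negative genes. Across all genes tested, which are not independent replicates, the changes of the models had a Pearson r of 0.13 and a Spearman rho of 0.23.

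**Figure D1:**
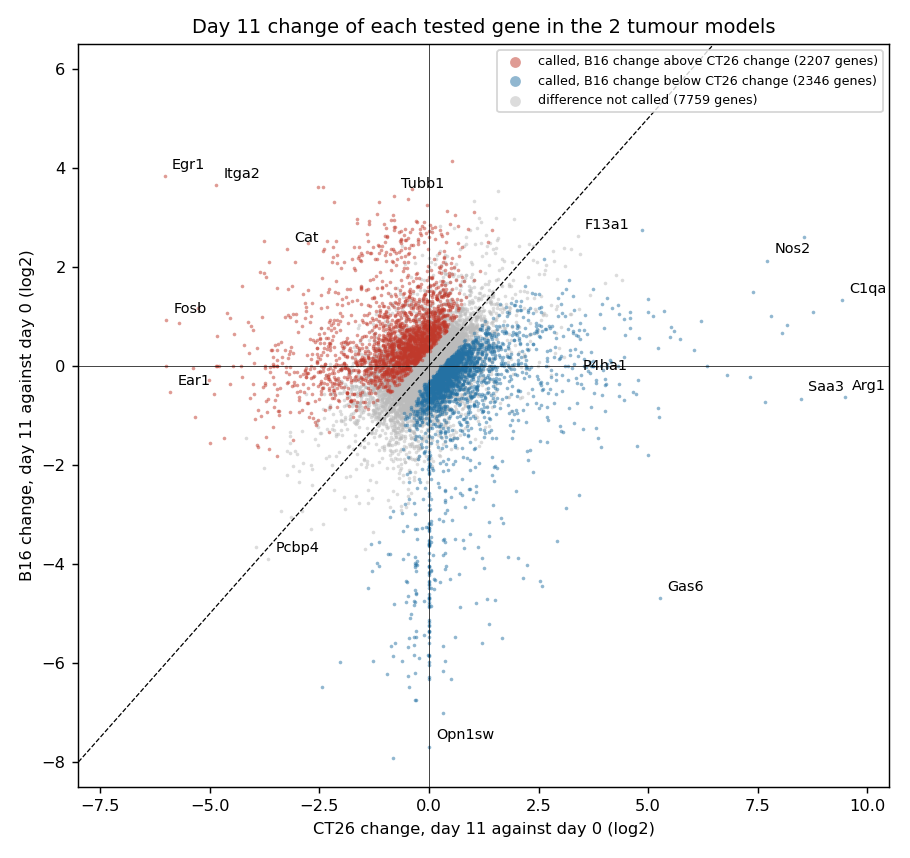
Change of each of 12312 tested genes at day 11 against day 0, in B16 (y axis, log2) and CT26 (x axis, log2), with the dashed line where both changes are equal. Red genes had a called positive difference (2207), blue genes a called negative one (2346), and grey genes no called difference. Egr1 and Itga2 lie at the upper left, Arg1, C1qa and Saa3 at the right, Gas6 at the lower right and Opn1sw at the bottom.

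The balance of directions depended on scaling. With every library of a model brought to the same total, the positive calls were 2841 and the negative ones 1752 (61.9% positive, against 48.5% as deposited). The median difference then was 0.13, against -0.01 as deposited, and the median change was -0.15 in B16 and -0.29 in CT26, against -0.01 in both. In B16 1975 genes were then higher and 3108 lower (38.9% higher, against 54% as deposited). In CT26 1620 were higher and 4420 lower (26.8%, against 52.7%). Equal totals moved the changes of both models downward and the difference upward. Rises within a model and negative differences that are smaller than these shifts have no direction that holds under both scalings. Gene lists below are described by their counts, to be read against the 37% called of all genes. Their medians are to be read against -0.01, or against 0.13 with equal totals. The lists were chosen with earlier results of these data known, so they are descriptions. Where a count was 5 or fewer, the genes were named after their values had been seen.

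**Figure D2:**
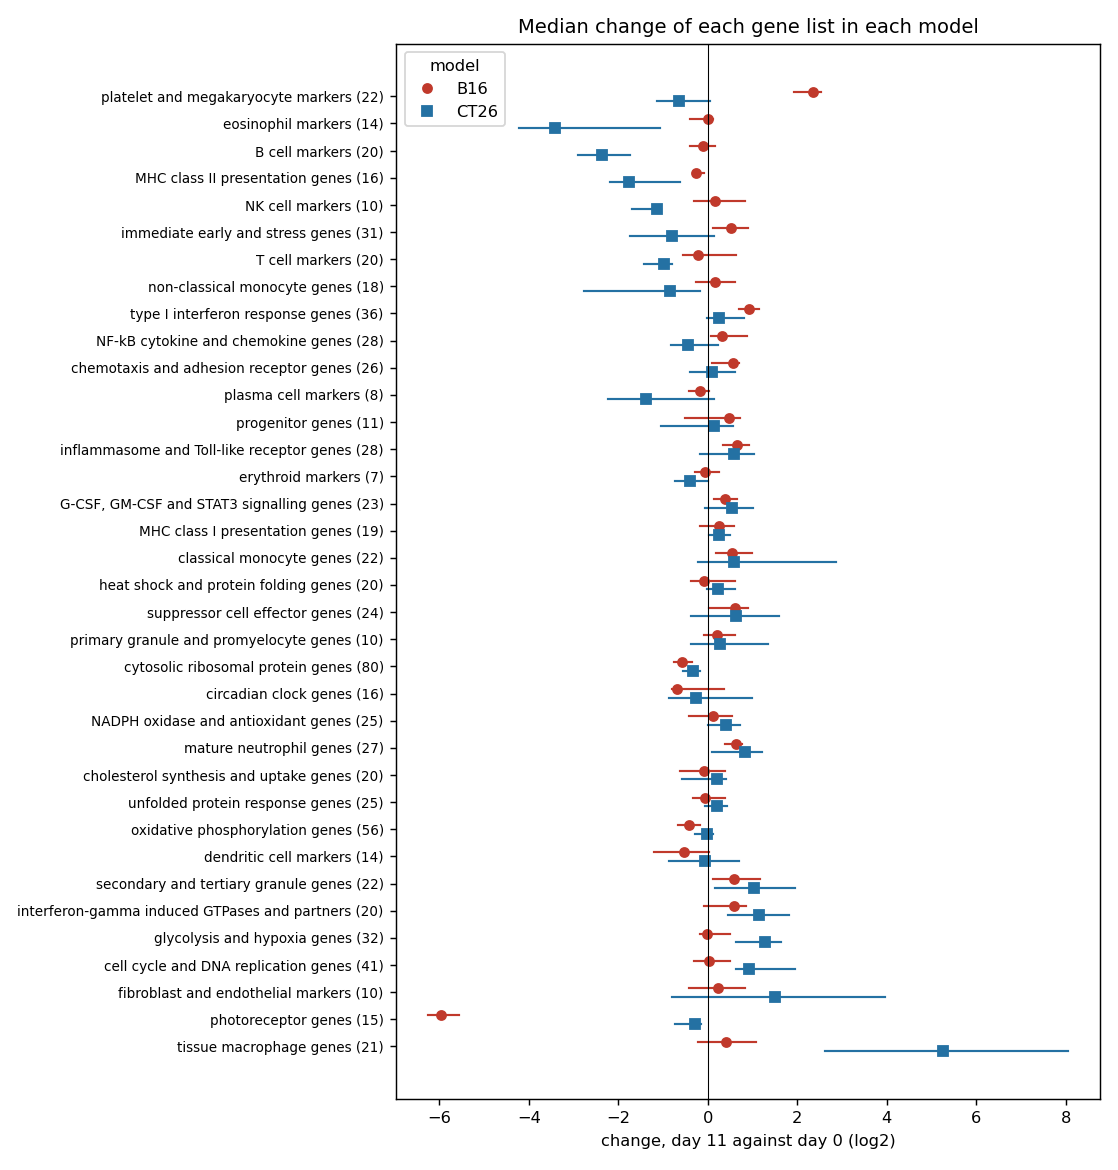
Median change at day 11 against day 0 (log2, x axis) of each gene list with at least 7 tested members, B16 in red circles above CT26 in blue squares, with the number of tested members in brackets. Bars span the middle 50% of members, and lists are ordered by their median difference. The models lie far apart for tissue macrophage genes (0.40 in B16, 5.27 in CT26), photoreceptor genes (-5.97 in B16, -0.29 in CT26), eosinophil markers (0 in B16, -3.41 in CT26) and platelet markers (2.36 in B16, -0.65 in CT26).

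Immediate early genes, which cells switch on within minutes of a stimulus and switch off again, mostly rose in B16 and mostly fell in CT26. Of 31 tested members of the list, 21 had a positive called difference and 2 a negative one (74.2% called), with a median difference of 1.24. In B16 19 were higher and 2 lower (median 0.51), and in CT26 6 were higher and 19 lower (median -0.79). Opposite calls were made for 13.

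Egr1, a zinc-finger transcription factor gene (chr18:34859823-34864984, plus strand, in GENCODE vM21 on build GRCm38, as all gene positions here), had the largest positive difference of the genes named here. It had 2016, 1840.1 and 1969 normalized counts in B16 day 11 libraries, against 116, 139 and 155 in B16 day 0 libraries. CT26 libraries had 341, 393 and 247 at day 11, against 18145, 22416 and 22786 at day 0. The groups did not overlap within either model, and they lay in opposite orders. The change was 3.83 ± 0.14 in B16 (log2 ± SE) and -6.03 ± 0.14 in CT26, a difference of 9.85 ± 0.20 (adjusted p = 1.79e-14). Leaving out any 1 library kept the difference between 9.66 and 9.998.

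Fosb, a subunit of the AP-1 factor (chr7:19302696-19310051, minus strand), had 1553, 1595 and 1632 normalized counts in B16 day 11, against 920.0, 810.2 and 800.2 in B16 day 0. In CT26 there were 38.8, 39.1 and 51.7 at day 11, against 2531, 2849.7 and 3005 at day 0. It rose less than Egr1 in B16 and fell about as far in CT26, with no overlap of days in either model (difference 6.91 ± 0.15, adjusted p = 2.84e-14). Fos, its close relative, had 41134, 37981 and 41901 in B16 day 11, against 18962, 20449 and 17050.2 in B16 day 0, and 6818, 8893 and 8404 in CT26 day 11, against 54399.5, 57523 and 56130.0 in CT26 day 0. Its days were apart in both models, in opposite directions (difference 3.91 ± 0.15, adjusted p = 7.34e-11). Jun rose in B16 (1.62 ± 0.083) and was not called in CT26 (0.033 ± 0.083), and Junb rose in B16 (0.40 ± 0.11) and fell in CT26 (-0.79 ± 0.11).

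The phosphatase gene Dusp2, which switches off MAP kinases, differed by its fall in CT26. It had 130.2, 151 and 121 normalized counts in B16 day 11, against 182, 143 and 143 in B16 day 0, which overlapped. Its CT26 values were 24.4, 27.6 and 25.3 at day 11, against 335, 339.6 and 269 at day 0 (difference 3.34 ± 0.22, adjusted p = 3.4e-08). Nr4a1, an orphan nuclear receptor gene, fell in both models, by far more in CT26: B16 day 11 libraries had 1496, 1639 and 1757, against 2054, 2014 and 2039.8 in B16 day 0, and CT26 day 11 libraries had 262, 285 and 286, against 2455, 2707 and 2654 in CT26 day 0 (difference 2.90 ± 0.11, adjusted p = 4.72e-11). The negative calls were Gadd45a (-0.56), a DNA damage response gene, and Fosl2 (-0.41), another AP-1 subunit. Fosl1 and Nr4a2 were too low to be tested.

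Promoters of the list were searched for the site that EGR factors bind, since Egr1 showed the largest positive difference. The letters GCGNGGGCG, on either strand in the 250 bases before the start of the gene, were found in 9 of 27 list members with a RefSeq promoter (33.3%), against 9.84% of 9407 tested genes with one. Among members with a positive called difference it was in 7 of 18. The cyclic AMP response element TGACGTCA was in 3 of 27 members, against 3.09% of tested genes, and the CArG box, which serum response factor binds, in 3 of 27, against 1.51%. None of these motifs contains another, and a match describes the sequence, not binding. Fosb and Dusp2 are shown because each holds 1 match (capitals), in RefSeq promoters of build GRCm38.p6, 5′ to 3′ on the gene's strand, Fosb at chr7:19310046-19310295, minus strand, and Dusp2 at chr2:127335909-127336158, plus strand.
Fosb: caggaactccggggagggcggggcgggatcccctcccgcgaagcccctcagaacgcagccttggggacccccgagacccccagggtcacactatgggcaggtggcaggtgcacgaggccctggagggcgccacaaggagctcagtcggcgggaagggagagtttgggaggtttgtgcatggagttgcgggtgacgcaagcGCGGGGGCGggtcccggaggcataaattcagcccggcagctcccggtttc
Dusp2: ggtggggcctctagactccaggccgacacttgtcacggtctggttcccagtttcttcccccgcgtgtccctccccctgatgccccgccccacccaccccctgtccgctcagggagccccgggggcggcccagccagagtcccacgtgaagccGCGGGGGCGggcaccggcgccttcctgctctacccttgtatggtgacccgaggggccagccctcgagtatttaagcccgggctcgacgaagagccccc

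Genes of NF-kB signalling and the inflammatory cytokines it drives went largely the same way. Of 28 tested members 15 had a positive and 2 a negative called difference (60.7%), with a median of 0.54, and with medians of 0.33 in B16 and -0.44 in CT26. Ptgs2, the inducible prostaglandin synthase (chr1:150100031-150108227, plus strand), had 609, 562 and 694 normalized counts in B16 day 11, against 370.2, 395 and 265 in B16 day 0. In CT26 it had 55.0, 59.8 and 48.3 at day 11, against 2919, 3077 and 2624 at day 0. Days were apart in both models, up in B16 and down in CT26 (difference 6.57 ± 0.19, adjusted p = 1.66e-12). The neutrophil-attracting chemokine gene Cxcl2 rose in B16, with 376, 421 and 479 at day 11, against 165, 120.0 and 139 at day 0. It fell in CT26, with 416, 201 and 131 at day 11, against 740.2, 635 and 598 at day 0 (difference 3.14 ± 0.39, adjusted p = 1.84e-05). Ccl3, another chemokine gene, was not called in B16 (0.49 ± 0.32) and fell in CT26 (-2.60 ± 0.32). The negative calls were the chemokine gene Ccl9 (-2.23 ± 0.58), for which CT26 day 11 replicate 1 had 2149 normalized counts, against 376 and 479 in the other replicates, and Bcl3 (-0.80), an atypical inhibitor of NF-kB. Without that replicate the Ccl9 difference was -1.46 and still called.

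**Figure D3:**
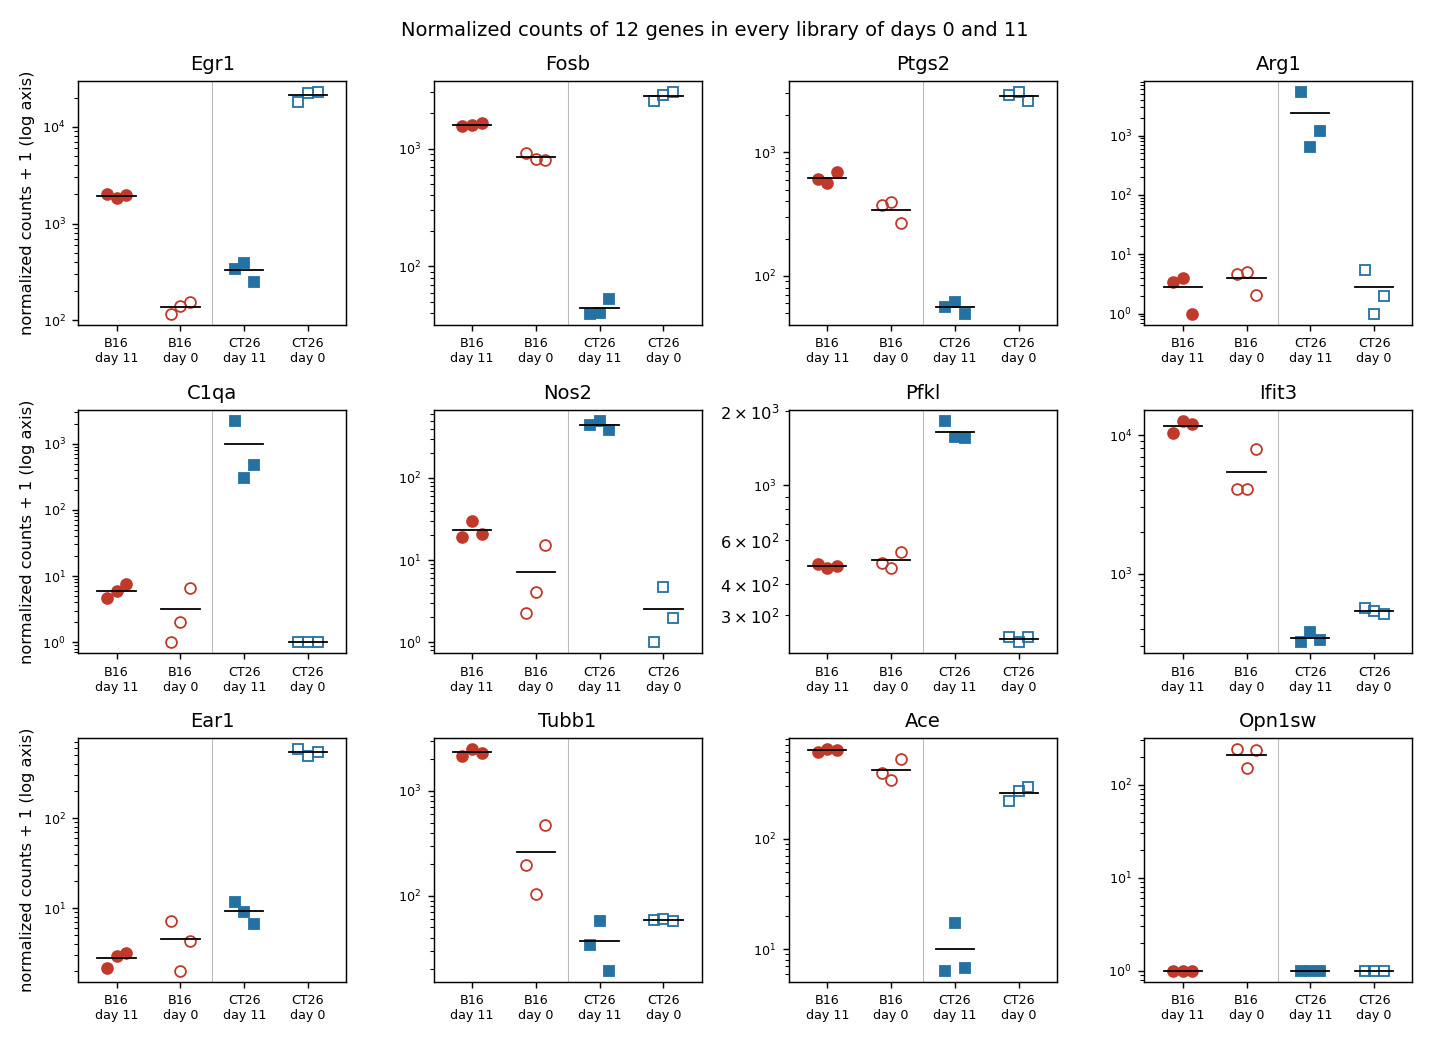
Normalized counts plus 1 (log axis) of 12 genes in every library, B16 as red circles and CT26 as blue squares, filled at day 11 and open at day 0, with black lines at group means. Egr1, Fosb and Ptgs2 are up in B16 and down in CT26. Arg1, C1qa, Nos2 and Pfkl are up in CT26, Tubb1 is up in B16, Ear1 and Ace are down in CT26, and Opn1sw is above 0 in B16 day 0 alone.

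Type I interferon response genes, which encode antiviral proteins and sensors of viral nucleic acid, rose more widely in B16. Of 36 members 34 rose and 0 fell in B16 (median 0.93), while 14 rose and 4 fell in CT26 (median 0.26, a value within the scaling shift). The difference was positive and called for 17 and negative for 3 (55.6%), with a median of 0.57. The summed level of the list was 263928 to 276685 normalized counts in B16 day 11, against 123295 to 190630 in B16 day 0. In CT26 it was 88009 to 125027 at day 11, against 76953 to 77721 at day 0. The highest of the B16 day 0 sums was that of replicate 3, and without that library 23 differences were positive and 3 negative, with a median of 0.79.

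Ifit3, which binds viral RNA complexes (chr19:34583531-34588731, plus strand), had 10429, 12722 and 11938 normalized counts in B16 day 11, against 4073, 4079.5 and 7978 in B16 day 0. The CT26 libraries held 318, 378 and 329 at day 11, against 565, 534 and 506 at day 0. It rose in B16 and fell in CT26 with no overlap (difference 1.84 ± 0.26, adjusted p = 6.2e-05), although reads of its near-identical copy Ifit3b cannot be placed with certainty. Ifit2 rose in B16 (1.47 ± 0.27) and was not called in CT26 (-0.58 ± 0.27), with 2197, 2801 and 2687 in B16 day 11 libraries, against 618, 706 and 1774 in B16 day 0 libraries. Cmpk2, a mitochondrial nucleotide kinase gene, rose in B16 (1.10 ± 0.14) and fell in CT26 (-0.57 ± 0.14). Mx1, a dynamin-like antiviral GTPase gene, was low and rose in B16 (2.27 ± 0.47), a difference of 2.73 ± 0.66 (adjusted p = 0.00442) that DESeq2 on recovered reads did not call (adjusted p = 0.05005). Recovered reads are the whole reads that the normalized values give back, and 11 of the 12 libraries entered the tests on them. The antiviral regulator Irf7 rose in B16 (1.23 ± 0.16) and was not called in CT26 (0.022 ± 0.16). Negative differences were called for Oas1g (-0.83), Oasl2 (-0.78) and Eif2ak2 (-0.65), which rose in both models and more in CT26.

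The interferon-stimulated response element core, GAAA and GAAA with any 2 bases between them, on either strand, was in 12 of 27 members with a RefSeq promoter (44.4%), against 3.44% of 9407 tested genes. It was in 4 of 12 members with a positive called difference and in 8 of 15 others. Ifit3 and Rsad2, an antiviral enzyme gene with a difference of 1.01, are shown as positive members that hold it (capitals, read here as TTTC and TTTC with 2 bases between), Ifit3 at chr19:34583279-34583528, plus strand, and Rsad2 at chr12:26456453-26456702, minus strand, build GRCm38.p6.
Ifit3: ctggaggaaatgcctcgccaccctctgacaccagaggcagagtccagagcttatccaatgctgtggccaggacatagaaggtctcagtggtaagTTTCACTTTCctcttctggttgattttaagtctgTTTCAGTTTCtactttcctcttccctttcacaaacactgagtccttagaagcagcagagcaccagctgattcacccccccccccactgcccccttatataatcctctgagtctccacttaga
Rsad2: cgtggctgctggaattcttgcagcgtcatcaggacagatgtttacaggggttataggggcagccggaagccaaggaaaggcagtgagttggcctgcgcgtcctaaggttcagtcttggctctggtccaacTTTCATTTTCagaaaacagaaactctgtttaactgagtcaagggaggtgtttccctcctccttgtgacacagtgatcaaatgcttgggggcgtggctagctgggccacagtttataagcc

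Genes induced by interferon-gamma and those of MHC class I presentation had called differences in both directions. Of 20 interferon-gamma induced GTPases and partners 2 differences were positive and 3 negative (25%, against 37% of all genes), with a median of -0.92. Ciita, the master regulator of MHC class II genes, was positive (3.22 ± 0.28) with Gbp9 (1.81 ± 0.24). Gbp3 (-1.90 ± 0.56), Gbp2 (-1.54 ± 0.55) and the factor Irf1 (-0.88 ± 0.27) were negative. Gbp2, a guanylate-binding protein gene, had 4863, 5011 and 21410.2 normalized counts in B16 day 0 libraries, the last of which lay above every B16 day 11 library (10959.6, 12832 and 10949), and its call ended without any 1 of 8 other libraries. The count of calls was 12 without B16 day 0 replicate 1, 8 without B16 day 0 replicate 2 and 8 without CT26 day 11 replicate 1. Without B16 day 0 replicate 3, the high library, the calls were 2 positive and 3 negative, with a median of -0.42. The Gbp2 difference was then -0.83, the Gbp3 difference -1.19 and that of Nlrc5, a class I gene named below, -0.88, all still called. Of 19 MHC class I genes 2 were positive and 5 negative (36.8%, near the background), with 6 and 5 without B16 day 0 replicate 3. The median, -0.03, was 0.12 with equal totals, against 0.13 over all genes. B2m, the light chain of class I molecules, rose in B16 (1.09 ± 0.13) and was not called in CT26 (0.26 ± 0.13). Reads of related Gbp genes and of H2 genes cannot be placed with certainty. The B2m difference was 0.83 ± 0.19 (adjusted p = 0.00248). H2-T24, a non-classical class I gene, was the other positive one (1.33 ± 0.16). Negative differences were called for the transactivator Nlrc5 (-1.38 ± 0.42), the proteasome genes Psme2 (-1.08 ± 0.21) and Psmb9 (-0.80), and the peptide-loading genes Tap2 (-0.75) and Tapbp (-0.52).

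Most glycolysis and hypoxia genes were not called higher in B16 and rose in CT26. Of 32 members 10 rose and 5 fell in B16 (median -0.01), while 28 rose and 1 fell in CT26 (median 1.29). The difference was negative and called for 22 and positive for 1 (71.9%), with a median of -0.92. The positive gene was Vegfa (0.85), a vascular growth factor. P4ha1, which hydroxylates collagen and is a known hypoxia target (chr10:59323296-59373304, plus strand), had 204, 201 and 175 normalized counts in B16 day 11, against 232, 212 and 241 in B16 day 0. In CT26 there were 1404, 1327 and 1081 at day 11, against 111, 122 and 138 at day 0. B16 days lay close together and CT26 days far apart (difference -3.58 ± 0.17, adjusted p = 9.83e-10).

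Pfkl, a subunit of phosphofructokinase, the enzyme that commits sugar to glycolysis, had 481, 462 and 469 normalized counts in B16 day 11, against 487, 465 and 539 in B16 day 0. CT26 libraries had 1828, 1564 and 1556 at day 11, against 242, 231 and 242 at day 0. The groups overlapped in B16 and were far apart in CT26 (difference -2.86 ± 0.12, adjusted p = 2.69e-10). Pdk1, a kinase that inhibits pyruvate dehydrogenase, was not called in B16 (-0.35 ± 0.14) and rose in CT26 (2.69 ± 0.14). Ankrd37, a hypoxia target, did likewise (0.27 ± 0.27 in B16, 3.70 ± 0.27 in CT26). Other members with negative calls included the enzymes Tpi1 (-2.19), Pgam1 (-1.94), Ldha (-1.73) and Pgk1 (-1.62), and the oxygen sensor Egln3 (-2.34). Hif1a, the oxygen-regulated factor itself, rose in both models (1.22 ± 0.11 in B16, 1.58 ± 0.11 in CT26), and its difference was not called (-0.68 to -0.042, a 95% interval not adjusted for the number of genes).

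The core of the hypoxia response element, ACGTG on either strand, was in 19 of 29 members with a RefSeq promoter (65.5%), against 24.7% of 9407 tested genes. It was in 14 of 20 members with a negative call, in 5 of 9 others and in 12 of 27 immediate early genes (44.4%). The promoters of P4ha1 and Ankrd37, which had the largest negative differences of the list, are shown with it in capitals (CACGT where it lies on the other strand), P4ha1 at chr10:59323046-59323295, plus strand, and Ankrd37 at chr8:45999851-46000100, minus strand, build GRCm38.p6. The Ankrd37 stretch precedes the RefSeq start and lies inside the longer GENCODE gene (chr8:45996902-46005707, minus strand).
P4ha1: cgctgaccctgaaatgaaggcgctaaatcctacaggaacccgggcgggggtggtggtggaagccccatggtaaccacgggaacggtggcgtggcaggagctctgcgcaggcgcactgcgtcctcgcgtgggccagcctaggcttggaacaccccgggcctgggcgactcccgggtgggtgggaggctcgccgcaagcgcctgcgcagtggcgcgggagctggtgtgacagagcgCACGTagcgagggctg
Ankrd37: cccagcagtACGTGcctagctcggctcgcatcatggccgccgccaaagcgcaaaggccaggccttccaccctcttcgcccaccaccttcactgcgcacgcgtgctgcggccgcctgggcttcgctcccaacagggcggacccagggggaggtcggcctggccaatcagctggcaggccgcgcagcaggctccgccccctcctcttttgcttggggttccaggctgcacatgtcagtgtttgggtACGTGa

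**Figure D4:**
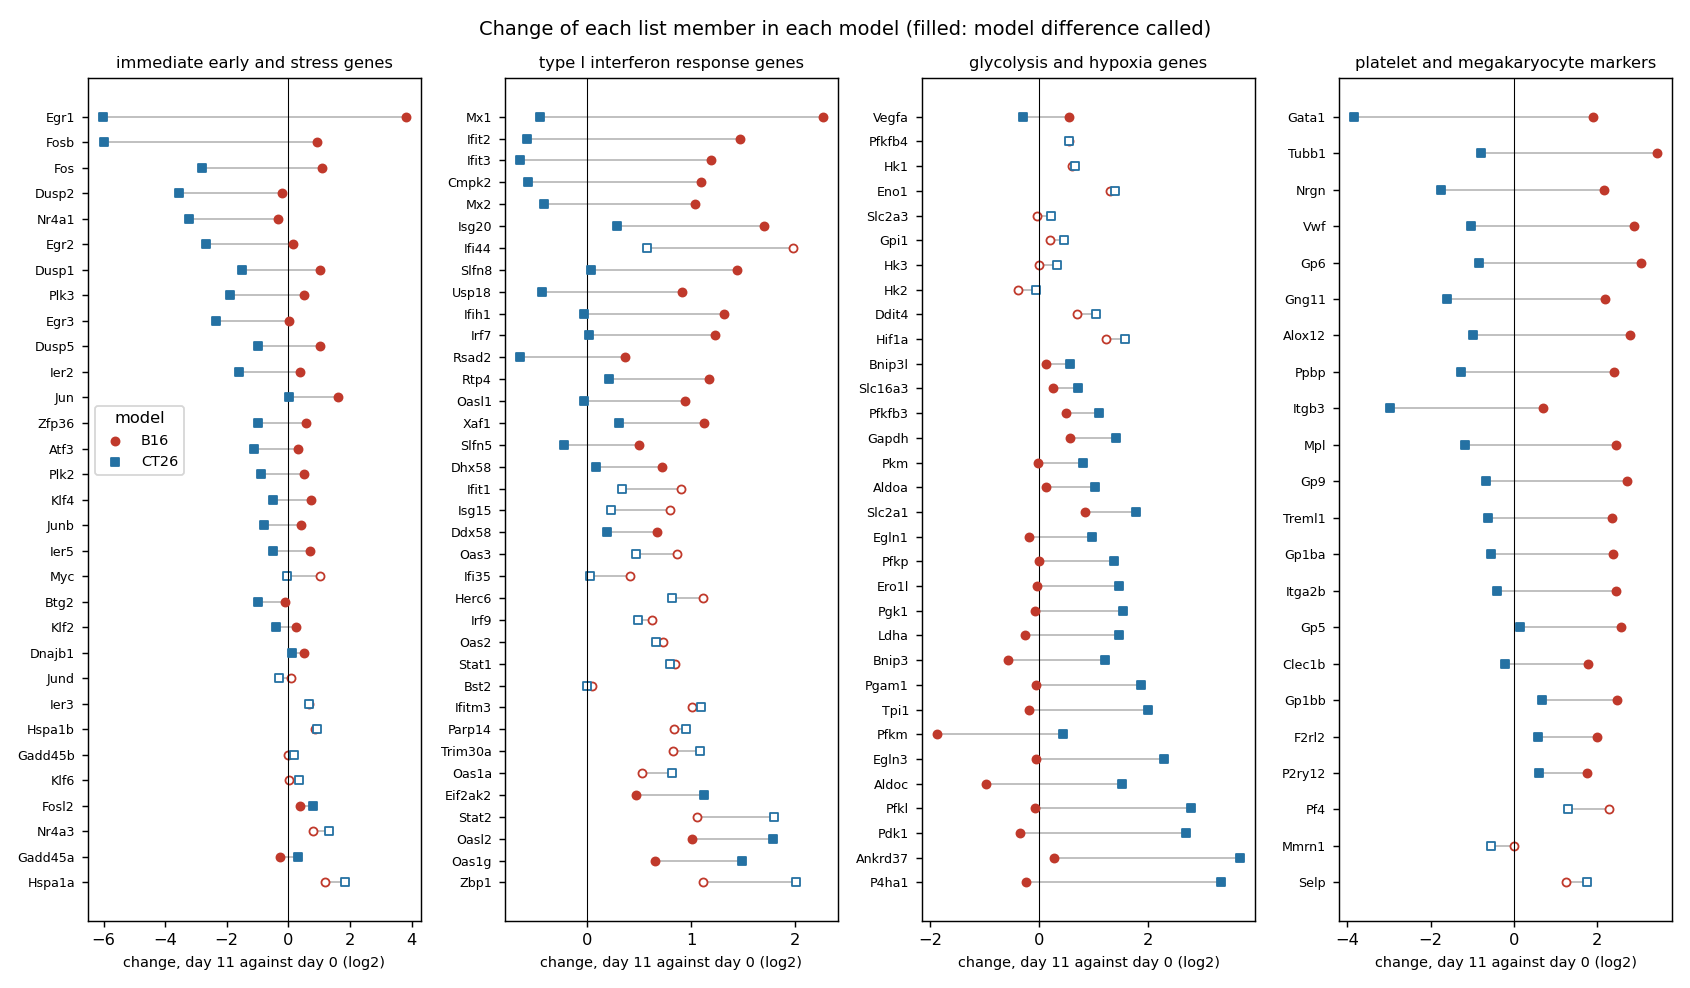
Change at day 11 against day 0 (log2, x axis) of each member of 4 lists in B16 (red circles) and CT26 (blue squares), joined by a grey line and ordered by the difference. Filled symbols mark members whose difference was called. Most immediate early, interferon and platelet members lie further right in B16, and most glycolysis members further right in CT26.

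Differences of mitochondrial and ribosomal protein genes were mostly small. Of 56 oxidative phosphorylation genes 32 fell and 1 rose in B16 (median -0.41), while 9 fell and 6 rose in CT26 (median -0.02). The difference was negative for 23 and positive for 2 (44.6%), with a median of -0.36. That median was -0.22 with equal totals, against 0.13 over all genes, and -0.22 without CT26 day 11 replicate 1. Ndufb7, a subunit of complex I, had 761, 896 and 765 normalized counts in B16 day 11, against 1571, 1495 and 1551 in B16 day 0. Its CT26 values were 394, 406 and 419 at day 11, against 429.8, 376 and 391 at day 0, which overlapped (difference -0.96 ± 0.12, adjusted p = 2.02e-05). Uqcrc2 (0.63) and Atp5c1 (0.34), subunits of complex III and of the ATP synthase, were positive. Of 80 ribosomal protein genes 59 fell in B16 and 46 fell in CT26. The difference was called for 31 (38.8%), close to the background, with 26 negative and 5 positive. The median of -0.18 was -0.03 with equal totals, against -0.01 and 0.13 over all genes. Without CT26 day 11 replicate 1 there were 25 negative and 16 positive calls. Positive ones included Rps27 (1.37), Rpl19 (0.47), Rpl5 (0.46) and Rplp0 (0.45). Many ribosomal protein genes have processed copies elsewhere in the genome, so the placing of their reads is uncertain.

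Called differences among genes of suppressor function went in both directions. Of 24 tested members 7 had a positive and 9 a negative called difference (66.7%), with a median of -0.17, and 5 were called in opposite directions. Arg1, the arginase of suppressor cells (chr10:24915221-24927484, minus strand), had the largest negative difference of the genes named here. It had 2.39, 2.96 and 0 normalized counts in B16 day 11, against 3.71, 4.1 and 1.1 in B16 day 0. In CT26 it had 5379, 628 and 1175 at day 11, against 4.42, 0 and 0.995 at day 0. B16 libraries stayed within a few counts, while every CT26 day 11 library lay far above every CT26 day 0 library. The difference was -10.12 ± 1.07 (adjusted p = 4.07e-06), it lay between -10.79 and -9.24 with any 1 library left out, and edgeR on recovered reads did not call it (adjusted p = 0.0846).

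Nos2, the inducible nitric oxide synthase (chr11:78920787-78960254, plus strand), had 17.9, 28.6 and 19.7 normalized counts in B16 day 11, against 1.24, 3.08 and 14.3 in B16 day 0. The CT26 libraries held 445, 499 and 384 at day 11, against 0, 3.64 and 0.995 at day 0. It rose in both models, and by more in CT26 (difference -5.59 ± 0.85, adjusted p = 0.000115). The CT26 day 11 libraries lay closer together than those of Arg1. The positive genes besides Ptgs2 included Cd80 (1.58), a ligand of T cell costimulation, and Tgfb1 (1.13), a suppressive cytokine. Slc27a2, a fatty acid transporter of suppressor neutrophils, was called at the edge of the threshold (2.29 ± 0.87, adjusted p = 0.0484) and lost its call without any 1 of 9 libraries, and the value without B16 day 0 replicate 1 was 1.39. Il4ra, the interleukin 4 receptor chain, was negative (-1.34), as was the factor Stat3 (-0.67). Il10, Ido1 and Il6 were too low to be tested.

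Tissue macrophage genes, known from macrophages that live in organs, moved beside Arg1. Of 21 tested members 16 had a negative and 1 a positive called difference (81%), with a median of -5.28, or -5.23 with genes at 0 in a whole group set to a bound. In B16 2 rose and 1 fell (median 0.40), and in CT26 19 rose and 0 fell (median 5.27). The summed level was 24444 to 25403 normalized counts in B16 day 11, against 24149.8 to 26168 in B16 day 0. In CT26 the day 11 sums were 54541 in replicate 1 and 29224 and 29778 in the others, against 17189.5 to 19079.8 at day 0. Without replicate 1 there were 16 negative calls and 1 positive, with a median of -4.67. EdgeR on recovered reads called 8 negative and 0 positive, and 7 and 1 of 11 were called where both models had to average at least 5. The part of macrophages in the Arg1 difference was not tested. In such bulk samples more cells of a type and more RNA per cell cannot be told apart.

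C1qa, which starts the classical complement pathway (chr4:136895917-136898803, minus strand), had 3.58, 4.94 and 6.57 normalized counts in B16 day 11, against 0, 1.03 and 5.52 in B16 day 0. In CT26 there were 2237, 299 and 478 at day 11, against 0 in all 3 at day 0. With a floor of 3 counts per library the CT26 level was at least 360.2-fold higher at day 11, and at least 139-fold without replicate 1, the highest library, a setting chosen after the data were seen. The B16 days overlapped. Fitted differences of genes at 0 in a group depend on the pseudocount, and for C1qa it was -8.10, between -8.72 and -7.25 when 1 library was left out. The acute-phase gene Saa3 was not called in B16 (-0.66 ± 0.61) and had 2313, 369 and 578 in CT26 day 11, against 0.884, 0.91 and 1.99 in CT26 day 0, with a difference of -8.37 without replicate 1. The mannose receptor gene Mrc1 had at most 2.48 in any B16 library, and 815, 92.0 and 202 in CT26 day 11, against 0, 0.91 and 0.995 in CT26 day 0. The macrophage genes Fcna, C1qb and Cd5l followed the same pattern, with replicate 1 highest in each. EdgeR on recovered reads did not call C1qa, Mrc1, Fcna or Cd5l for the difference. Siglec1, a sialic acid-binding receptor of macrophages that also responds to interferon, was the positive exception (1.87 ± 0.65).

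Classical monocyte genes had called differences in both directions. Of 22 classical monocyte genes 4 differences were positive and 7 negative (50%), with a median of -0.06. With equal totals the median was 0.09, against 0.13 over all genes. The negative ones included the matrix and clotting genes Fn1 (-3.52 ± 0.68) and F10 (-2.89 ± 0.65). Both were highest in CT26 day 11 replicate 1, Fn1 with 8514, 1203 and 2167 in CT26 day 11, against 86.7, 128 and 137 in CT26 day 0, and without it the differences were -2.72 for Fn1 and -2.14 for F10. The positive ones were Ms4a4c (2.99 ± 0.39), a membrane protein gene of monocytes, the factor Klf4 (1.24), the pore-forming Mpeg1 (0.83) and Csf1r (0.47), the receptor of the monocyte growth factor. Without replicate 1 of CT26 day 11 the classical list had 8 positive and 7 negative calls.

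Non-classical monocyte genes, typical of monocytes that patrol vessel walls, mostly fell in CT26. Of 18 members 5 rose and 4 fell in B16 (median 0.16), while 0 rose and 12 fell in CT26 (median -0.84). The difference was positive for 13 and negative for 0 (72.2%), with a median of 0.94. Ace, the angiotensin-converting enzyme (chr11:105967945-105989964, plus strand), had 607, 642 and 634 normalized counts in B16 day 11, against 391, 339 and 523 in B16 day 0. CT26 libraries had 5.41, 16.1 and 5.75 at day 11, against 216, 270.4 and 289 at day 0. The B16 days did not overlap but the change was not called (0.61 ± 0.28), and the CT26 fall was large (difference 5.44 ± 0.40, adjusted p = 8.51e-08). Adgre4, an adhesion receptor, had 80.3, 18.4 and 27.6 in CT26 day 11, against 757, 730.2 and 849.6 in CT26 day 0 (difference 5.09 ± 0.49). Cx3cr1, the fractalkine receptor, was not called in B16 (-0.41 ± 0.31) and fell in CT26 (-3.13 ± 0.31).

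Secondary and tertiary granule genes, which maturing neutrophils make, rose further in CT26. Of 22 members 11 rose in B16 and 15 in CT26. Among these 22 genes 14 differences were negative and 4 positive (81.8%), with a median of -0.73. The medians of the changes were 0.59 in B16 and 1.04 in CT26. Mmp8, the neutrophil collagenase, had 13404, 13231 and 13304 normalized counts in B16 day 11, against 12676, 12868 and 14443 in B16 day 0. Its CT26 values were 22275, 29717 and 26203 at day 11, against 7792, 8000.2 and 7789 at day 0. B16 days overlapped and CT26 days were apart (difference -1.72 ± 0.14, adjusted p = 2.62e-07). Cd177, a neutrophil surface antigen, behaved likewise (0.17 ± 0.095 in B16, 1.69 ± 0.095 in CT26). Lcn2, which withholds iron from bacteria, rose in both (0.67 ± 0.097 in B16, 1.99 ± 0.097 in CT26, difference -1.32 ± 0.14), as did Chil3, a chitinase-like protein gene (1.73 ± 0.20 in B16, 3.20 ± 0.20 in CT26). The positive ones were Mmp25 (1.2), a membrane-anchored protease, Padi4 (0.59), which citrullinates histones, Adam8 (0.58) and the integrin chain Itgam (0.55).

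The primary granule genes, made early in neutrophil development, were mostly too low or not called. Of 10 tested 2 were positive and 2 negative (40%), and Mpo, Elane, Ctsg and Ms4a3 were not tested. Prtn3, proteinase 3, had 87.2, 80.0 and 62.5 normalized counts in B16 day 11, against 65.6, 92.3 and 90.5 in B16 day 0. In CT26 it had 183, 71.3 and 66.7 at day 11, against 6.19, 10.02 and 4.97 at day 0 (difference -3.74 ± 0.49, adjusted p = 2.88e-05), with replicate 1 highest and a difference of -3.28 without it. Ctsc, which activates granule proteases, was negative (-1.25 ± 0.27), and the granulocyte factor Cebpe (1.63 ± 0.13) and the membrane protein gene Igsf6 (0.91 ± 0.13) were positive. Of 41 cell cycle genes 1, Kif23 (1.03), was positive and 8 were negative (22%, against 37% of all genes), with a median of -0.95 and 14 calls without CT26 day 11 replicate 2.

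Of 27 mature neutrophil genes 5 differences were positive and 10 negative (55.6%), with a median of -0.26. Stfa3, a stefin that inhibits cysteine proteases, rose in both models and more in CT26. It had 68.1, 82.0 and 42.7 normalized counts in B16 day 11, against 39.6, 31.8 and 47.5 in B16 day 0, and 681, 1013 and 793 in CT26 day 11, against 84.9, 68.3 and 50.7 in CT26 day 0 (difference -2.95 ± 0.35, adjusted p = 1.19e-05). Reads of the near-identical genes Stfa1, Stfa2, Stfa3 and BC100530 cannot be placed with certainty. Il1r2, a decoy receptor for interleukin 1, was negative as well (-1.57). The positive ones were the chemokine-binding receptor gene Ccrl2 (3.35 ± 0.22), Cxcr4 (0.86), which holds neutrophils in the marrow, Hcar2 (0.79), Csf1 (0.71) and Il1b (0.54). Ccrl2 rose in B16 (1.25 ± 0.15) and fell in CT26 (-2.10 ± 0.15).

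The calgranulins and the receptors that define neutrophils did not differ detectably. S100a8 had 167642, 188648 and 167562 normalized counts in B16 day 11, against 120053, 110352 and 111183 in B16 day 0, and 133227, 186283 and 135734 in CT26 day 11, against 92258, 73330.3 and 62989.7 in CT26 day 0. It rose in both models, and the 95% interval of its difference was -0.89 to 0.13 (adjusted p = 0.233). For S100a9 the interval was -1.18 to -0.065 (adjusted p = 0.075), with no called change in B16 (0.26 ± 0.19) and a called rise in CT26 (0.88 ± 0.19). For the G-CSF receptor gene Csf3r it was 0.055 to 0.95 (adjusted p = 0.0733). It rose in B16 (0.61 ± 0.15) and was not called in CT26 (0.11 ± 0.15). S100a9 and Csf3r became called under 7 alternatives each. The chemokine receptor gene Cxcr2 rose in both (0.76 ± 0.11 in B16, 0.93 ± 0.11 in CT26), with an interval of -0.51 to 0.17, and its difference was called without CT26 day 11 replicate 1. In G-CSF, GM-CSF and STAT3 signalling 5 of 23 genes were positive and 7 negative (52.2%), and the median of -0.0036 turned to 0.14 with equal totals. Among them were the receptor chain Il6st (-2.58 ± 0.57) and the survival gene Bcl2l1 (-1.23 ± 0.17), both of which rose in CT26. The positive ones were Junb, Cebpb (1.0), the kinase Tyk2 (0.87), the cytokine Osm (0.79) and Csf2ra (0.62), the GM-CSF receptor chain.

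Among receptors of chemotaxis and adhesion most called differences were positive. Of 26 genes 13 were positive and 4 negative (65.4%), with a median of 0.50. Pecam1, which junctions of vessel walls and leukocytes share, had 836, 927 and 823 normalized counts in B16 day 11, against 397, 432 and 544 in B16 day 0. The CT26 libraries held 79.4, 73.6 and 58.6 at day 11, against 325, 341 and 353 at day 0 (difference 3.18 ± 0.18, adjusted p = 8.31e-09), with no overlap and opposite directions. The platelet-activating factor receptor Ptafr rose in B16 (1.51 ± 0.14) and fell in CT26 (-0.46 ± 0.14), and the integrin Itgax fell in both, more so in CT26 (difference 1.35 ± 0.12). The negative ones were the chemoattractant receptors Fpr2 (-0.98), Ltb4r1 (-0.61), C5ar1 (-0.42) and S1pr4 (-0.67).

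Platelet and megakaryocyte markers rose in B16. Of 22 members 21 rose and 0 fell in B16 (median 2.36), while 2 rose and 7 fell in CT26 (median -0.65). The difference was positive for 19 and negative for 0 (86.4%), with a median of 3.17. Tubb1, the tubulin of platelets (chr2:174450695-174457882, plus strand), had 2172, 2505 and 2301 normalized counts in B16 day 11, against 197, 104 and 477 in B16 day 0. In CT26 there were 33.4, 56.4 and 18.4 at day 11, against 57.5, 59.2 and 56.7 at day 0. The B16 days were far apart and the CT26 change was not called (difference 4.24 ± 0.58, adjusted p = 4.29e-05). Vwf, which tethers platelets, rose in B16 (2.87 ± 0.35) and fell in CT26 (-1.03 ± 0.35), and the erythroid and megakaryocyte factor Gata1 did likewise (1.89 ± 0.43 in B16, -3.84 ± 0.43 in CT26). Summed over the list, B16 day 11 libraries had 40520 to 47989 normalized counts, against 7447, 5489 and 21469 in B16 day 0, and CT26 had 2526 to 3412 at day 11, against 3705 to 3853 at day 0. Without B16 day 0 replicate 3, the highest of that group, 20 were positive with a median of 3.74. The part of platelets in the other B16 changes was not tested.

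Few eosinophil and B cell markers were called in B16, and most fell in CT26. Of 14 eosinophil markers 2 fell and 1 rose in B16 (median 0), while 12 fell and 2 rose in CT26 (median -3.41). The difference was positive for 11 and negative for 0 (78.6%), with a median of 2.45, or 2.91 with genes at 0 in a whole group set to a bound. Il5ra, the receptor of the eosinophil growth factor, had 31.1, 30.6 and 27.4 normalized counts in B16 day 11, against 23.5, 21.5 and 23.2 in B16 day 0. CT26 libraries had 28.9, 21.9 and 24.1 at day 11, against 349, 398 and 438 at day 0 (difference 4.30 ± 0.28, adjusted p = 2.29e-08). Ear1, an eosinophil ribonuclease gene (chr14:43818765-43875517, minus strand), had 1.19, 1.98 and 2.19 in B16 day 11, against 6.19, 1.03 and 3.31 in B16 day 0, and 10.8, 8.05 and 5.75 in CT26 day 11, against 583, 486 and 537 in CT26 day 0. Its copies Ear2 and Ear6 are near-identical, so their reads cannot be placed with certainty, and Ear6 was at 0 in every B16 library. Prg3, an eosinophil granule gene, was at 0 in every CT26 day 11 library, and so at least 9.23-fold lower there than at CT26 day 0. With genes that averaged at least 5 in both models, 6 of 6 tested eosinophil markers were positive, and edgeR on recovered reads called 6 of 14.

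B cell markers numbered 20, and 2 fell and 2 rose in B16 (median -0.10), while 19 fell and 1 rose in CT26 (median -2.36). The difference was positive for 18 and negative for 0 (90%), with a median of 1.99. Fcmr, the receptor of immunoglobulin M (chr1:130865669-130880791, plus strand), had 432, 413 and 261 normalized counts in B16 day 11, against 347, 349.7 and 304 in B16 day 0, which overlapped. Its CT26 values were 37.9, 26.5 and 20.7 at day 11, against 333, 292 and 321 at day 0 (difference 3.58 ± 0.29, adjusted p = 2.57e-07). The low-affinity immunoglobulin E receptor gene Fcer2a (3.50 ± 0.24) and Tnfrsf13c (3.36 ± 0.36), the receptor of a B cell survival factor, showed the same. MHC class II presentation genes, which B cells and other presenting cells express, moved beside them: 11 of 16 were positive and 1 negative (75%), with medians of -0.26 in B16 and -1.77 in CT26. H2-Aa, a class II chain, had 1407, 1353 and 993 normalized counts in B16 day 11, against 1634, 1475 and 1502 in B16 day 0, and 155, 125 and 57.5 in CT26 day 11, against 564, 496 and 455 in CT26 day 0 (difference 1.95 ± 0.35, adjusted p = 0.000453). The exception was Ctss, a lysosomal protease of macrophages (-1.2). The part of B cells in the class II difference was not tested.

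T cell and natural killer cell markers were low. In B16 day 11 the T cell markers summed to 860 to 989 normalized counts and the plasma cell markers to 5165 to 5310. For T cells 7 of 20 were positive and 0 negative (35%, near the background), with 4, 4 and 3 called without B16 day 11 replicate 1, CT26 day 11 replicate 3 and CT26 day 0 replicate 2. Among them was the homing receptor Ccr7 (2.93 ± 0.40). For natural killer cells Gzma (3.6 ± 0.53), Prf1 (2.67 ± 0.74) and Il2rb (2.26 ± 0.67) were positive among 10 (30%), with 5 called without B16 day 0 replicate 3. Of 8 plasma cell genes (50% called) Sdc1 (2.59), Irf4 (1.92) and Mzb1 (1.67) were positive and the secretory factor Xbp1 negative (-0.52). Mzb1 lost its call without B16 day 11 replicate 1, B16 day 0 replicate 2 or CT26 day 0 replicate 1.

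**Figure D5:**
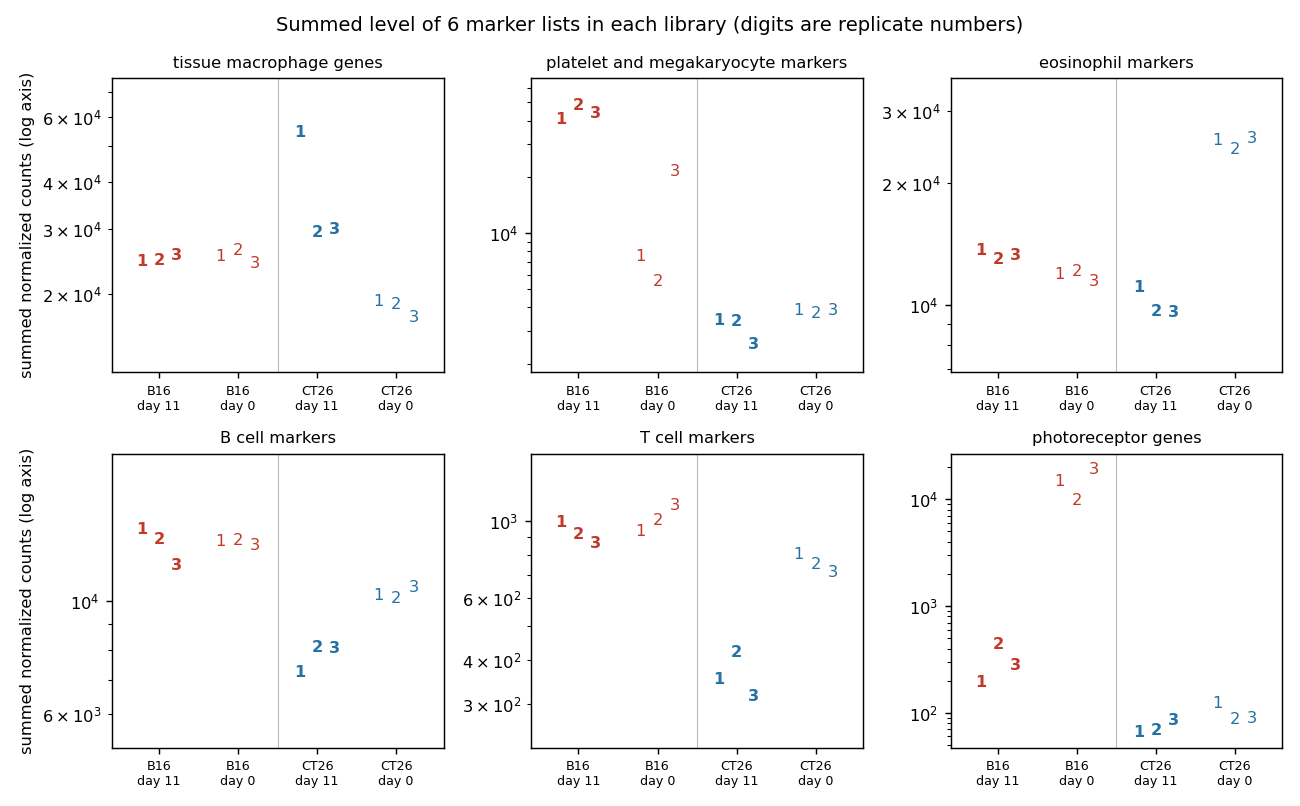
Summed normalized counts (log axis) of 6 marker lists in each library, printed as its replicate number, B16 in red and CT26 in blue, bold at day 11. CT26 day 11 replicate 1 (54541) tops the tissue macrophage panel and B16 day 0 replicate 3 (21469) tops its group in the platelet panel, while photoreceptor genes reach 9827 to 18919 in B16 day 0.

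Photoreceptor genes, which blood cells are not known to use, gave another large negative difference. All 15 tested members were called negative (100%), with a median of -5.27, or -5.81 with bounds. All 15 fell in B16, where their sum was 194 to 439.5 normalized counts at day 11, against 9827 to 18919 at day 0. In CT26 the sum was 65.8 to 85.1 at day 11, against 85.6 to 121 at day 0. Opn1sw, the short-wave cone opsin (chr6:29376671-29388468, minus strand), was at 0 in every B16 day 11 library, against 241, 149.7 and 238 normalized counts in B16 day 0, and at 0 in every CT26 library. It was at least 64.0-fold lower at B16 day 11, and no fold can be given in CT26. Nrl, the factor that sets rod identity, had 1.19, 3.95 and 1.1 in B16 day 11, against 324, 199 and 425 in B16 day 0. The count of calls was 5 in edgeR and 8 in DESeq2 on recovered reads, and 2 of 2 tested where both models had to reach the minimum. The same B16 day 0 libraries had the high Rn45s share, whose part in these values was not tested.

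For other cell types few markers were tested. Of 10 fibroblast and endothelial markers (70% called) Sparc (-5.56), Col3a1 (-4.94), Dcn (-4.06) and Col1a1 (-2.35), genes of the extracellular matrix, were negative. Sparc and Dcn were at 0 in all CT26 day 0 libraries. Vwf, Pecam1 and Acta2 (1.0) were positive, and the median was -1.2, or -0.54 with bounds, 0.74 where both models had to average at least 5 (4 of 6 called) and 2.09 with a minimum of 20 in 1 model (3 of 4 called). Of 14 dendritic cell markers 2 were positive and 3 negative (35.7%), among them the adhesion gene Cadm1 (-6.04 ± 0.64), with 1.19, 0 and 1.1 normalized counts in B16 day 11, against 58.2, 24.6 and 53.0 in B16 day 0. The others were Ly6d (3.0), Irf4, Clec10a (-4.06) and Tcf4 (-1.72). Among 11 progenitor genes (36.4% called, near the background) Gata2 (4.39 ± 0.87), Meis1 (2.90) and Lmo2 (0.58) were positive and Kit (-3.02 ± 0.55) negative. Kit, the stem cell factor receptor, rose in both models, with 156, 289 and 215 in CT26 day 11, against 7.08, 12.7 and 13.9 in CT26 day 0. Of 10 basophil and mast cell genes 6 were too low to be tested, among them Mcpt8, Cpa3, Fcer1a and Ms4a2. Of the 4 tested (100% called) Il4 and Gata2 were positive, and Kit and Hdc (-0.80 ± 0.18), the histamine-making enzyme, negative. Il4, the type 2 cytokine gene, was not called in B16 (1.16 ± 0.58) and had 0.902, 0 and 2.3 in CT26 day 11, against 81.4, 66.5 and 63.7 in CT26 day 0. Among erythroid, melanocyte and epithelial markers (14.3%, 25% and 20% called) the called genes were Alas2 (1.48), Dct (-3.32) and Muc1 (-1.42). Of the melanocyte markers 7 of 11 were too low to be tested, and of the epithelial ones 6 of 11.

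Innate sensors and redox enzymes included large single differences. Of 28 inflammasome and Toll-like receptor genes 11 were positive and 6 negative (60.7%), and edgeR and DESeq2 each called 11 in all. Tlr1, a lipopeptide sensor, had 411, 363 and 339 normalized counts in B16 day 11, against 161, 165 and 316 in B16 day 0. In CT26 it had 3436, 4311 and 4222 at day 11, against 369, 349 and 369 at day 0 (difference -2.59 ± 0.26, adjusted p = 2.9e-06). It rose in both and by more in CT26, whereas Tlr8, a sensor of single-stranded RNA, rose by more in B16 (2.82 ± 0.16 in B16, 0.67 ± 0.16 in CT26). Tlr9, the DNA sensor, rose in B16 (1.98 ± 0.47) and fell in CT26 (-2.0 ± 0.47). Of 25 NADPH oxidase and antioxidant genes 4 were positive and 12 negative (64%), with a median of -0.26. Cat, the hydrogen peroxide-degrading catalase (chr2:103453849-103485160, minus strand), had 786, 926 and 739.7 in B16 day 11, against 139.9, 105 and 266 in B16 day 0, and 249.9, 116 and 125 in CT26 day 11, against 1330.1, 1376 and 1689 in CT26 day 0. It moved in opposite directions with no overlap (difference 5.60 ± 0.40, adjusted p = 7.92e-08). The other positive ones were Nqo1 (2.09), Srxn1 (1.80) and the cystine transporter Slc7a11 (1.48). Peroxiredoxin genes Prdx1 (-2.10 ± 0.56) and Prdx2 (-1.72) were among the negative ones, Prdx1 with 909, 210.5 and 202 in CT26 day 11, against 135, 100.2 and 135 in CT26 day 0, and with a difference of -1.39 without CT26 day 11 replicate 1.

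Stress, lipid and clock genes gave mixed calls. Of 25 unfolded protein response genes 6 were positive and 7 negative (52%). Ppp1r15a, which restores translation after stress, was positive (2.63 ± 0.11), and Asns, asparagine synthetase, negative (-1.62 ± 0.20). Of 20 cholesterol genes 4 were positive, among them Stard4 (1.74) and Srebf2 (0.80), and Mvd (-0.95), Hmgcs1 (-0.91) and Msmo1 (-0.76) were negative (35%). The Stard4 call ended without B16 day 11 replicate 2, B16 day 0 replicate 1, or CT26 day 0 replicate 2 or 3. That call also ended with edgeR and with DESeq2 on recovered reads, and without a filter. Of 20 heat shock genes Dnajb4 (0.86) and Dnajb1 (0.39) were positive and 5 negative (35%): Hsp90aa1 (-1.62 ± 0.14), Stip1 (-0.66), Dnaja1 (-0.64), Ahsa1 (-0.56) and Hsp90ab1 (-0.47). The count was 4 without B16 day 11 replicate 3 or B16 day 0 replicate 1. Dnajb4 lost its call without either of these, without B16 day 0 replicate 2 or CT26 day 11 replicate 3, and with edgeR and DESeq2. Of 16 clock genes Tef (2.26) and Per1 (1.14) were positive and Ciart (-2.72), Bhlhe41 (-1.80), Cry1 (-0.66) and Nfil3 (-0.58) negative (37.5%). Bhlhe41 lost its call under 11 of 25 alternatives, 8 of them without 1 library (replicate 1 or 2 of B16 day 11 or of CT26 day 11, replicate 1 or 3 of B16 day 0 or of CT26 day 0), and Ciart lost it with DESeq2.

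Single genes with large opposite changes included some outside these lists. Itga2, the collagen-binding integrin chain of platelets and other cells (chr13:114833081-114932100, minus strand), had 31.1, 40.5 and 32.9 normalized counts in B16 day 11, against 2.48, 1.03 and 2.21 in B16 day 0. The CT26 libraries held 1.8, 2.3 and 1.15 at day 11, against 58.4, 86.5 and 91.5 at day 0. Its days lay apart in both models, in opposite orders (difference 8.51 ± 0.51, adjusted p = 1.23e-08). Tnik (6.28 ± 0.77), a kinase gene, and the imprinted genes Mest (6.16 ± 0.80) and Sgce (5.26 ± 0.74) did the same. Tnik and Mest were highest within B16 day 0 in replicate 3. P2ry14, a receptor of UDP-sugars, fell in CT26, with 46.9, 13.8 and 18.4 at day 11, against 427, 449.8 and 517 at day 0 (difference 5.90 ± 0.86). Its B16 rise was called (1.62 ± 0.60), but the counts were low and the days overlapped. They were 10.8, 10.9 and 4.38 in B16 day 11, against 7.43, 2.05 and 0 in B16 day 0. Bpifa6 was at 0 in every library but those of CT26 day 0, where it had 66.3, 61.9 and 59.7, so it was at least 19.6-fold lower at CT26 day 11.

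In the other direction Gas6, a member of the tissue macrophage list and a ligand that bridges dying cells to macrophages (chr8:13465374-13494490, minus strand), was at 0 in every B16 day 11 library, against 31.0, 18.5 and 26.5 normalized counts in B16 day 0. It was at least 7.72-fold lower at B16 day 11. In CT26 there were 246, 19.6 and 41.4 at day 11, against 0.884, 0 and 0.995 at day 0, so it rose there, and its difference was -9.96 ± 0.96, or -8.93 without CT26 day 11 replicate 1. The membrane adaptor Ank2, the neuronal gene Dpysl3, the protease inhibitor Timp3, the dynamin Dnm1 and the fatty acid transporter Slc27a1 were also called lower in B16 and higher in CT26. Their differences were -7.02, -6.88, -6.26, -6.43 and -4.50. CT26 day 11 replicate 1 was the highest CT26 library for all 6. Dpysl3 had 17.1, 2.3 and 2.3 in CT26 day 11, against 0 in every CT26 day 0 library. Dnm1 had 16.2, 3.45 and 1.15, against 0, 0.91 and 0. Without replicate 1 the Dpysl3 level at CT26 day 11 was 0.82 of the floor, so no CT26 rise can be given for it. Dnm1 did not exceed the floor of 3.45 in CT26 day 11 replicate 2 or replicate 3, so its CT26 rise rests on replicate 1. Ednrb, the endothelin receptor, was not called in B16 (-0.73 ± 0.68) and had 994, 119.6 and 195 in CT26 day 11, against 1.77, 0 and 0 in CT26 day 0.

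Shared changes whose sizes did not differ detectably were found as well. F13a1, a clotting factor chain of monocytes and platelets, had 398, 451 and 414 normalized counts in B16 day 11, against 37.1, 50.3 and 164 in B16 day 0. CT26 libraries had 1655, 205 and 366 at day 11, against 39.8, 41.9 and 60.7 at day 0. It rose in both models, with a 95% interval of the difference of -2.50 to 0.96 and with CT26 day 11 replicate 1 and B16 day 0 replicate 3 above the others of their groups. The matrix gene Ecm1 rose in both (2.38 ± 0.44 in B16, 3.08 ± 0.44 in CT26), as did Phf11d (2.43 ± 0.51 in B16, 2.38 ± 0.51 in CT26). The potassium channel gene Kcnn3 was called higher in both but was low in B16, with 5.97, 1.98 and 5.48 at day 11, against 0 in all B16 day 0 libraries. It was at least 1.33-fold higher at B16 day 11, and rose by 3.23 ± 0.58 in CT26. Its difference was called with a pseudocount of 5. Pcbp4, an RNA-binding protein gene, fell in both (-3.90 ± 0.49 in B16, -3.67 ± 0.49 in CT26), with an interval of -1.71 to 1.23. Jchain, the joining chain of antibodies (-3.30 ± 0.66 in B16, -2.68 ± 0.66 in CT26), and Sgip1 fell in both too.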

How the data were processed

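RNA of immature myeloid cells of mice of the B16 and CT26 tumour models was sequenced, and the authors deposited 1 table of normalized counts per tumour model (a signal that cannot be negative, gene counts divided by 1 factor per library, per the file headers and values), with 10703698 to 15027698 per library. Per the submitters' processing notes, whose tools come without roles, DESeq2 1.6.3, HTSeq 0.6.1p1, TopHat2 2.0.10, cutadapt and the mm10 build were used. For the counting, annotation and strand were not given in the sources used here, so overlapping and near-identical genes may share reads.

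Values were tested as log2(value + 1) with limma 3.58.1 in R 4.3.3, with a mean-variance trend, 4 group means over 12 libraries, 8 residual degrees of freedom, 2-sided tests and Benjamini-Hochberg adjustment over 12312 genes. Fold changes on this scale understate the change of low genes. All errors are standard errors with n = 3 per group, and a gene was called at an adjusted p under 0.05. The difference was tested as an interaction. The fit was tested on simulated data first.

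Values of all 12 libraries were whole multiples of 1 step each (tolerance 0.001). In CT26 day 0 replicate 3 the step lies near 1 and no recovery of reads was claimed, so the reads of the other 11 libraries were tested with edgeR 4.0.16 and DESeq2 1.42.0 as alternatives. A floor is 3 such reads in each library and covers counting error only. Replicates of a group correlated at 0.9757 to 0.9906, and none differed by so little as to be 1 library. Same-numbered libraries of both days deviated together with r of -0.0572 to 0.0509 and were not treated as pairs. Other alternatives were pseudocounts of 0.5 and 5, other filters, scalings and models, and leaving out each library.

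The members and lists were chosen with earlier results of these data known. Named were, by rule, the 10 largest differences in each direction with a mean of at least 20 in a group, the 6 opposite changes in each direction whose smaller change was largest, up to 4 called members per list, Arg1, Nos2, S100a8, S100a9, Csf3r and Cxcr2, and 4 shared changes in each direction. Names of predicted genes and small RNAs were left out. Other list members named had been seen first. Promoters are RefSeq sequences of GRCm38.p6, matched by symbol for 9407 of the tested genes. Figures were drawn with matplotlib 3.10.9. Some genes that the rule takes are not reported here.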

Additional observations from a re-analysis of the deposited data

Results flagged for a closer look

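Among the named genes, 12 stood out because they were called in opposite directions in the models and by the test of the difference itself. Higher in B16 and lower in CT26 at day 11 were Egr1 (difference 9.85 on the log2 scale), Itga2 (8.51), Tnik (6.28), Mest (6.16), Cat (5.60) and Sgce (5.26). Called lower in B16 and higher in CT26 were Gas6 (-9.96), Ank2 (-7.02), Dpysl3 (-6.88), Dnm1 (-6.43), Timp3 (-6.26) and Slc27a1 (-4.50). These genes were taken from 641 with opposite calls for the size of the smaller change. The 6 negative genes had 0 to 6.91 normalized counts in B16 day 11, against 9.91 to 102 in B16 day 0. In CT26 day 11 they had 1.15 to 41.4 outside replicate 1, and that replicate was the highest for each. Without it no CT26 rise can be given for Dpysl3, and the CT26 rise of Dnm1 rests on it. The same B16 day 0 libraries had the high photoreceptor sums, whose part in these differences was not tested. Tnik, Mest and Sgce were highest among B16 day 0 libraries in replicate 3, as were the platelet markers, whose part was not tested either.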

How the results depend on the processing

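Under 25 alternatives the number of genes called for the difference lay between 3258 (DESeq2 on recovered reads) and 5157 (all 23 libraries in the fit), against 4553, within 1.5 times. It was 3352 with edgeR, 4605 without a filter and 4120 where both models had to average at least 5. Leaving out 1 library gave 3806 to 5062 for the difference, the highest without CT26 day 11 replicate 1, 3935 to 5598 for B16 and 4533 to 5927 for CT26. The fit with the replicate number as a block called 4496, although the numbers showed no pairing. No call turned round. Of 155 called named genes 126 held throughout and 29 lost the call at least once, Slc27a2 and Gbp2 under 14 alternatives each. Besides those given with the results, edgeR or DESeq2 on recovered reads ended the calls of Bpifa6, Opn1sw, Ear6, Prg3, Prf1, Il2rb, Dcn, Dct and Nlrc5. Of 12 named genes without a call 4 gained one. The counts of 14 of 39 lists moved by more than 1.5 times. In other lists DESeq2 called 1 natural killer and 7 eosinophil markers, edgeR and DESeq2 called 4 heat shock genes and 0 melanocyte markers each, a minimum of 20 left 5 cell cycle genes, and interferon-gamma induced genes numbered 11 in the fit of all libraries and 8 with the replicate block. With equal totals 61.9% of called differences were positive, with equal totals after removal of Rn45s 59.4% and with TMM 56%, against 48.5% as deposited.

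With 3 libraries a group, the median 95% interval spanned 0.56 to either side of a difference, so smaller differences were mostly not detectable. Tumour line, mouse strain and table cannot be told apart. Low genes rest on few reads, and those at 0 in a group have no fold of their own. Tests on recovered reads left out CT26 day 0 replicate 3.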
